A study of Mus musculus with 12 samples.

Results

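The testes of mice given L.J. without busulfan were compared with control testes by RNA sequencing, as 3 libraries labelled L.J. against 3 labelled control, 6 of the 12 libraries of the series. The other 6 carry the labels busulfan plus L.J. and busulfan, and they enter below as a second setting and as a yardstick for single transcripts. All mice were of the outbred ICR strain and 8 weeks old. The L.J. groups received 10 mg/kg of an agent that the labels name by these initials without saying what it is, and the design text names FMT, which it does not spell out. The number of doses, the route, the days to sampling and the control's vehicle are not stated in the labels. Nor is it stated that each library came from its own mouse, and the p-values measure the spread between these samples, which may be technical. Expression is in FPKM, fragments per kilobase of transcript scaled to the mapped fragments of the library, as the authors deposited it. Of 21004 genes in the table, 14675 had at least 1 FPKM in at least 3 of the 12 libraries and were tested.

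The testis makes sperm inside seminiferous tubules, where germ cells pass from spermatogonia through meiosis to round and then elongating spermatids. Sertoli cells nurse the germ cells and seal the tubule with tight junctions, and Leydig cells between the tubules make androgens from cholesterol. In whole-organ RNA the share of each cell type sets much of what is read. A lower level of a cell type's genes can come from fewer of these cells or from less RNA in each, and these cannot be told apart here. The defining genes of these cells were present in all 6 libraries. Sycp3, a core protein of meiotic chromosomes, lay between 232 and 354 FPKM in the L.J. libraries and between 275 and 341 FPKM in the control libraries.

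No gene passed the test for a difference between L.J. and control testes. Limma, a linear model with a moderated variance on log2(FPKM + 1), gave an adjusted p below 0.05 for 0 of 14675 genes, or 0%. Hrg and Alb, both liver transcripts described below, had the smallest adjusted p, 0.0897. At an unadjusted p below 0.05 the fit held 40 genes that were higher in the L.J. libraries, or 0.273%, and 274 that were lower, or 1.87%. With all 12 libraries in 1 fit the count was again 0, with 715 genes at an unadjusted p below 0.05. The groups did not overlap for 162 genes with all L.J. libraries higher, or 1.10%, and for 1169 with all L.J. libraries lower, or 7.97%. The split between directions moved with the scaling. Over all genes tested the median change (log2) stood at -0.11 in the deposited values, at 0.01 with libraries brought to a common median and at -0.01 with quantile normalization. The counts of genes apart became 511 higher and 508 lower after median scaling, and 439 and 713 after quantile normalization. Scaling each library to the median of its Sertoli genes gave 141 higher and 632 lower. With fewer libraries to separate the counts grow. The higher count was 430, 327 and 1299 without L.J. 1, 2 and 3, and 346, 580 and 273 without control 1, 2 and 3. The lower count was 2529 without L.J. 1 and 4986 without L.J. 3.

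The L.J. libraries differed from each other more than the control libraries did. The median SD of a gene's log2 values was 0.423 over the L.J. libraries and 0.192 over the control libraries, and it was the larger in L.J. for 12874 genes, or 87.7%. L.J. 1 was closest to a control library, with a Pearson correlation across genes of 0.986 with control 2, while L.J. 2 and L.J. 3 correlated at 0.867 with each other, the lowest value among the 15 pairs. Genes within a library are not independent replicates, and the values describe the libraries only. L.J. 1 had 13 genes more than 1 log2 unit above the highest control library, or 0.0886%, and 26 genes that far below the lowest, or 0.177%. L.J. 2 had 178 such genes above, or 1.21%, and 295 below, or 2.01%. L.J. 3 had 291 above, or 1.98%, and 90 below, or 0.613%. Set against the other 2 control libraries, control 1 had 41 genes above and 31 below, control 2 had 231 and 62, and control 3 had 114 and 36. An L.J. library was set against 3 libraries and a control library against 2, which leaves the control counts larger by construction. Scaling to Sertoli genes turned the counts of L.J. 3 to 4 above and 2507 below and those of L.J. 1 to 31 above, and under the 3 scalings L.J. 2 had between 232 and 667 genes above and between 94 and 163 below.

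**Figure D1:**
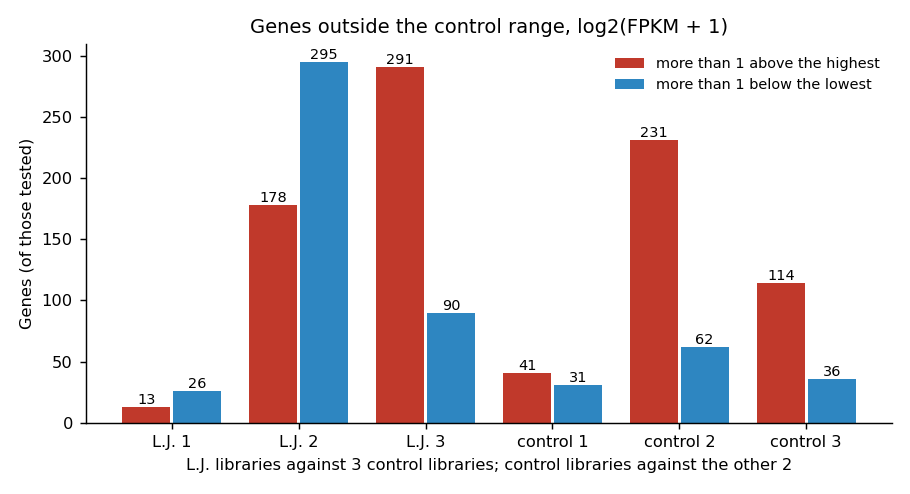
Genes whose log2(FPKM + 1) lay more than 1 unit outside the control range, by library. Bars count genes above the highest (red) and below the lowest (blue) control library; each control library is set against the other 2, each L.J. library against all 3. L.J. 1 has 13 and 26 genes, L.J. 2 has most genes below (295) and L.J. 3 most above (291).

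L.J. 1 lay within 1 log2 unit of the control range for every tested gene of the germ cell, Sertoli and Leydig lists. As deposited, many Leydig genes lay below that range and many meiotic genes above it. Counted at any distance, 16.1% of all genes in L.J. 1 lay above the highest control library and 38.8% below the lowest. In the list of elongating spermatids 1 of 26 genes lay above and 0 below. Of 24 Sertoli genes, 12 lay below the lowest control and none above. On the quantile and median scales 10 and 9 of them lay below, and the list mean lay within the control range. Of 20 Leydig genes, 13 lay below and 1 above, and of 20 genes of cholesterol synthesis 16 lay below and 1 above. On the quantile, median and Sertoli scales the counts below were 11, 12 and 5 for Leydig genes and 13, 11 and 2 for cholesterol genes. Of 32 meiotic genes, 13 lay above the highest control and 6 below.

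L.J. 2 was the library richest in late spermatid transcripts and poorest in Leydig cell transcripts of the 6. In this library 21.7% of all genes lay above the highest control and 60.0% below the lowest. Of 26 genes of elongating spermatids, 24 lay above the highest control, 9 of them by more than 1 log2 unit, and none below. Smcp, a protein of the sperm mitochondrial capsule, stood at 6751 FPKM in L.J. 2, against 533 to 2211 FPKM in the control libraries. Tnp2, a transition protein that packs spermatid DNA, stood at 5584 FPKM in L.J. 2, against 375 to 1927 FPKM in the control libraries. Of 20 Leydig genes, 18 lay below the lowest control, 12 of them by more than 1 unit, and 1 above. The 1 above was Nr4a1, an orphan nuclear receptor that also responds early to stimuli. Of 20 genes of cholesterol synthesis 19 lay below, 9 by more than 1 unit, and of 25 matrix genes 24 lay below. Under the 3 scalings the counts below were 16 to 17 for Leydig genes, 13 to 17 for cholesterol genes and 17 to 22 for matrix genes, and those of spermatid genes above were 24 to 26.

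L.J. 3 had the highest Sertoli cell transcripts of the 6 and the lowest transcripts of round spermatids. In this library 39.4% of all genes lay above the highest control and 36.7% below the lowest. Of 24 Sertoli genes, 23 lay above, 9 by more than 1 log2 unit, and 23 also lay above after quantile normalization and after median scaling. Clu, a secreted chaperone abundant in Sertoli cells, stood at 3288 FPKM in L.J. 3, against 762 to 1461 FPKM in the control libraries. Sox9, a transcription factor of Sertoli cell identity, stood at 45.5 FPKM in L.J. 3, against 9.38 to 17.3 FPKM in the control libraries. Of 20 junction genes, 17 lay above, among them Cldn11, the main claudin of the Sertoli cell barrier, and scaled to Sertoli genes 7 did. All 23 genes of round spermatids and all 18 of the piRNA pathway, which silences transposons, lay below the lowest control, and they did so under each scaling tried. Of 32 meiotic genes 27 lay below and 1 above. Of 26 genes of elongating spermatids 7 lay below and 0 above, and 14 lay below when scaled to Sertoli genes. Their mean log2(FPKM + 1) of 6.69 lay within the control range of 6.08 to 7.80. Of 14 immediate early genes, which respond within minutes to stimuli, 12 lay above, and 5 did when scaled to Sertoli genes. Of 20 Leydig cell genes in L.J. 3, 9 lay below the lowest control and 3 above, with Cyp17a1, Cyp11a1 and Fdx1 more than 1 unit below. The count below was 9, 11 and 19 on the quantile, median and Sertoli scales.

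**Figure D2:**
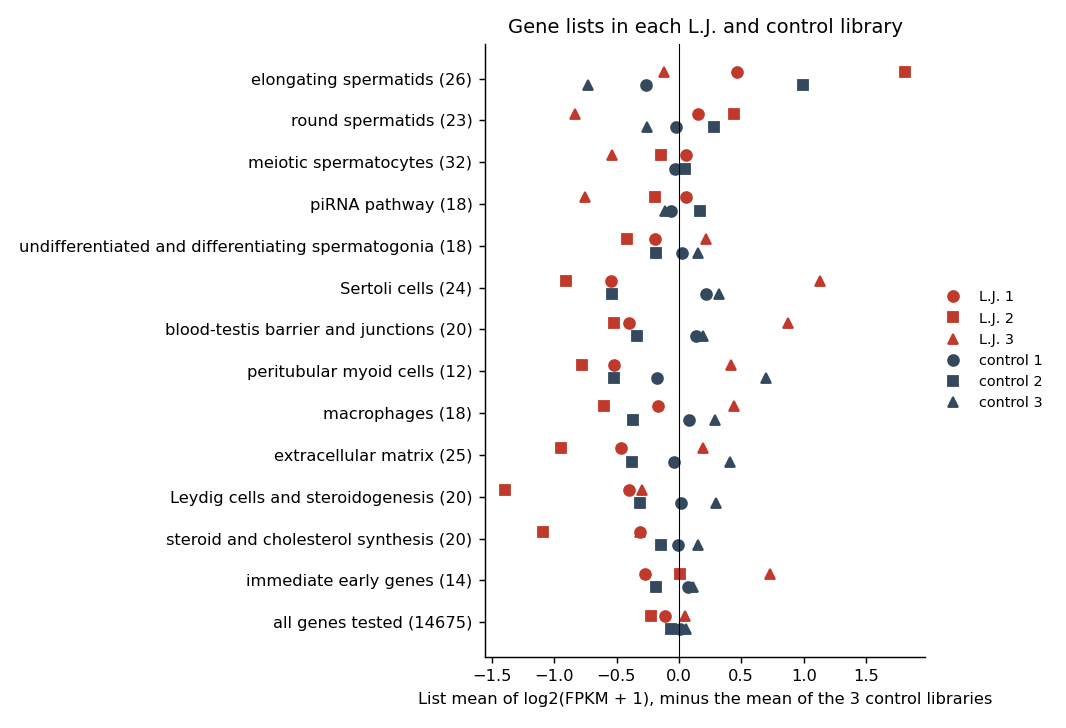
Mean log2(FPKM + 1) of 14 gene groups in each library, minus the mean of the 3 control libraries, with the number of genes used in brackets. Red marks are L.J. and dark marks control libraries, with circle, square and triangle for libraries 1, 2 and 3. L.J. 2 and L.J. 3 lie at opposite ends for Sertoli genes, while no L.J. library lies above the middle of the controls for Leydig cell or cholesterol genes.

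Leydig cell genes of androgen synthesis were lower in all 3 L.J. libraries than in any control library for 5 of 20 members, against 7.97% of all genes, and for 0 members they were higher. Those 5 were Star, Cyp11a1, Cyp17a1, Fdx1 and Scarb1, and the median log2 change of the list was -0.74, against -0.11 for all genes. Cyp11a1, the enzyme that cuts the cholesterol side chain as the first step of steroid synthesis (gene 13070, chromosome 9, 57998024 to 58027031, GRCm38), had 146, 37.4 and 68.2 FPKM in L.J. 1 to 3, against 283, 176 and 294 FPKM in control 1 to 3. All L.J. values lay below the lowest control value, with L.J. 2 the lowest and L.J. 1 the nearest to the controls. The log2 change was -1.75 ± 0.49 (SE, n = 3 each), with an unadjusted p of 0.00923 and an adjusted p of 1 by limma. Adjusted p-values not given below were also 1 in this fit. Cyp17a1, the enzyme that turns progestins into androgens (chromosome 19, 46667165 to 46673000), had 508, 124 and 267 FPKM in L.J. 1 to 3, against 826, 626 and 883 FPKM in control 1 to 3. Star, which carries cholesterol into the mitochondrion (chromosome 8, 25808474 to 25815982), had 64.7, 31.5 and 42.5 FPKM in L.J. 1 to 3, against 88.0, 68.7 and 129 FPKM in control 1 to 3. Both genes showed the same order, L.J. 1 highest and L.J. 2 lowest of the L.J. libraries, and the log2 changes were -1.58 ± 0.50 for Cyp17a1 and -1.04 ± 0.33 for Star, with unadjusted p of 0.0156 and 0.017. Fdx1, the ferredoxin that feeds electrons to Cyp11a1 (chromosome 9, 51943023 to 51963602), had 18.3, 13.1 and 13.3 FPKM in L.J. 1 to 3, against 28.7, 28.0 and 29.7 FPKM in control 1 to 3. Here the control values lay close together and the gap to the L.J. values was wide, with a log2 change of -0.92 ± 0.19 and an unadjusted p of 0.00187. Lhcgr, the receptor for luteinizing hormone, had 16.7, 4.52 and 8.05 FPKM in L.J. 1 to 3, against 26.8, 16.3 and 34.0 FPKM in control 1 to 3. L.J. 1 lay above control 2, so the groups overlapped for this gene. Scaled to Sertoli genes, Cyp11a1 remained apart while Star, Cyp17a1, Fdx1 and Scarb1 overlapped, and the list median was -0.68 on that scale. Scarb1 also overlapped after quantile normalization. On the quantile, median and Sertoli scales 5, 7 and 4 of 20 members were apart and lower, and 0 were higher. Without L.J. 2 the list median was -0.26.

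The Leydig cell genes did not move together in every L.J. library, and the promoters of 3 genes that parted are shown for context. Insl3, a peptide hormone of Leydig cells (chromosome 8, 71689252 to 71690577), had 2108, 774 and 3522 FPKM in L.J. 1 to 3, against 3519, 2542 and 4484 FPKM in control 1 to 3. L.J. 1 and L.J. 2 lay below all controls, and L.J. 3 lay within their range, while scaled to Sertoli genes all 3 lay below. Hsd3b1, an enzyme that oxidizes the steroid ring (chromosome 3, 98842356 to 98859794), had 102, 135 and 490 FPKM in L.J. 1 to 3, against 171, 126 and 263 FPKM in control 1 to 3. Its L.J. 3 value was the highest of the 6 libraries and its L.J. 1 value the lowest. Hsd3b6, a close relative that adult Leydig cells use, had 102, 11.2 and 54.8 FPKM in L.J. 1 to 3, against 83.3, 66.4 and 76.6 FPKM in control 1 to 3. The sequences of these relatives are alike, so reads may have been split between them and their single values are uncertain. As a share of the Insl3 level, Cyp11a1 was at 6.94%, 4.83% and 1.94% in L.J. 1 to 3, against 8.04%, 6.91% and 6.55% in control 1 to 3. Cyp17a1 was at 24.1%, 16.1% and 7.57% of Insl3 in L.J. 1 to 3, against 23.5%, 24.6% and 19.7% in control 1 to 3. For both enzymes the share in L.J. 1 lay within the control range and that in L.J. 3 was the lowest of all 6. Hsd3b1 ran the other way, at 4.84%, 17.5% and 13.9% of Insl3 in L.J. 1 to 3, against 4.86%, 4.95% and 5.86% in control 1 to 3. L.J. 2 and L.J. 3 lay above all control libraries and L.J. 1 just under the lowest. Of the shares computed, only that of Nr5a1 was apart, and it was higher. Nr5a1 was at 1.37%, 3.27% and 2.69% of Insl3 in L.J. 1 to 3, against 1.28%, 1.1% and 1.25% in control 1 to 3. Its FPKM overlapped between the groups. Star was at 3.07%, 4.07% and 1.21% of Insl3 in L.J. 1 to 3, against 2.5%, 2.7% and 2.88% in control 1 to 3. The promoters, 300 bases from RefSeq on GRCm38.p6 and written 5′ to 3′ on the gene's strand, lie at chr9:57997774-57998073 (plus strand, the first of 2 listed starts), chr8:71689002-71689301 (plus strand) and chr3:98859745-98860044 (minus strand).
Cyp11a1: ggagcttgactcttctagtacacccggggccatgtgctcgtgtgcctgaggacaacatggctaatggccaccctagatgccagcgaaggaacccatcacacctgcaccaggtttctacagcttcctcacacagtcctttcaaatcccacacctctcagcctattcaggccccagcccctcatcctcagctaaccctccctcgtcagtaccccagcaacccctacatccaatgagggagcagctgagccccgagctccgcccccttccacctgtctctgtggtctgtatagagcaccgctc
Insl3: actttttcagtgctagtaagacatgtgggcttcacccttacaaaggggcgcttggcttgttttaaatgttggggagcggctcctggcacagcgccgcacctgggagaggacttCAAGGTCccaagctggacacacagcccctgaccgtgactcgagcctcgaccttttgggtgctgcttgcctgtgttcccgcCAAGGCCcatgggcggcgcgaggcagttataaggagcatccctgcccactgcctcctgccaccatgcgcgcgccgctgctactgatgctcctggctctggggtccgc
Hsd3b1: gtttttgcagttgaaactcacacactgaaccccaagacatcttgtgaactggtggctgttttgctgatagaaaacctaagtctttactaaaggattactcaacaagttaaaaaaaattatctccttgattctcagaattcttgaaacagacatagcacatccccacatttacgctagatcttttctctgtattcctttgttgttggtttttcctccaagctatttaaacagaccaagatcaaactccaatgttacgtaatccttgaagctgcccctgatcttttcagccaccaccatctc
Capitals mark CAAGGNC or its reverse complement GNCCTTG, the core that steroidogenic factor 1, a nuclear receptor of steroid-making cells, is known to bind. Insl3 held 2 copies on the gene's strand, and Cyp11a1 and Hsd3b1 held 0 in these windows. Of all 32851 promoters of the same length, 17.8% held a copy. Of the 20 Leydig genes, 14 had a promoter in the table and 4 of these genes held a copy at any of their listed starts. That count of genes is not comparable with the share of promoters. The 4 were Fdx1, Fdxr, Insl3 and Nr4a1, and Fdx1 is among the 5 genes that were apart and lower as deposited. A match describes the letters only. Promoters of Star and Cyp17a1 are not shown.

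**Figure D3:**
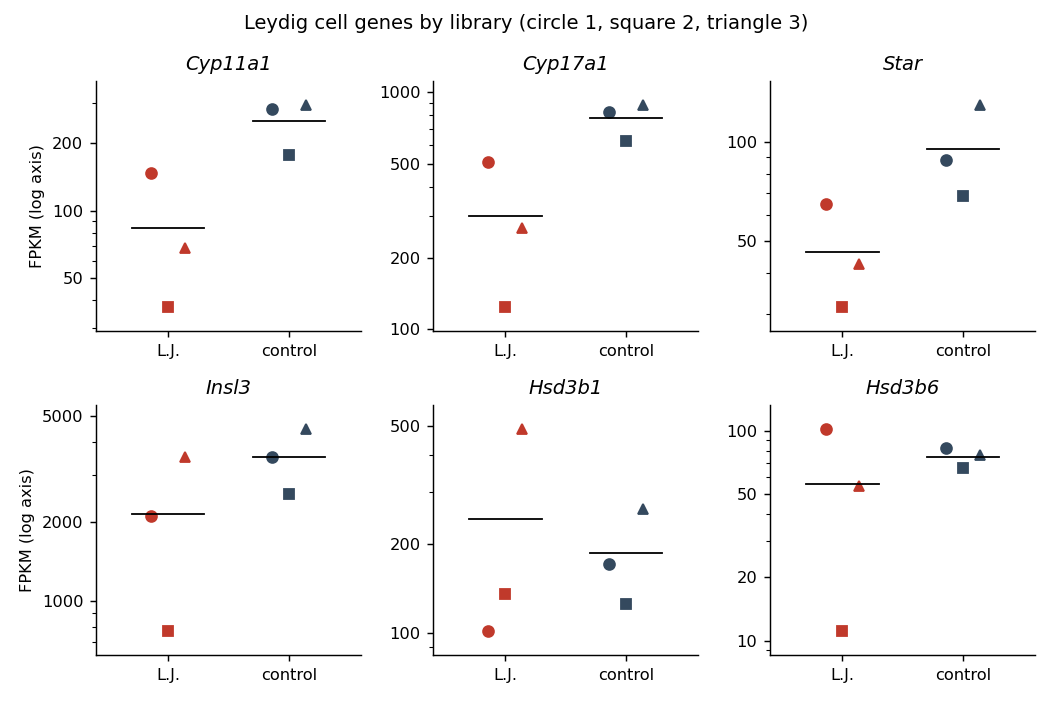
FPKM of 6 Leydig cell genes in each library on log axes, L.J. left and control right. Circles, squares and triangles are libraries 1, 2 and 3, and lines are group means. Cyp11a1, Cyp17a1 and Star have all L.J. points below all control points, Insl3, Hsd3b1 and Hsd3b6 do not.

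Genes that make cholesterol, the raw material of steroids, were lower in all L.J. libraries than in any control for 10 of 20 members, against 7.97% of all genes, and higher for 0. The list median was -0.58, and 4 members, among them Idi1 and Fdps, had an unadjusted p below 0.05. Fdps, which builds farnesyl pyrophosphate (chromosome 3, 89093588 to 89101967), had 22.7, 12.6 and 18.02 FPKM in L.J. 1 to 3, against 31.9, 31.3 and 36.4 FPKM in control 1 to 3. Each L.J. value lay well under the controls, and the log2 change was -0.90 ± 0.24 with an unadjusted p of 0.0069. Idi1, which isomerizes the isoprenoid building block, had 4.84, 3.42 and 4.12 FPKM in L.J. 1 to 3, against 6.79, 7.81 and 5.56 FPKM in control 1 to 3. The highest L.J. value lay close under the lowest control, and the groups overlapped under each scaling tried. The quantile, median and Sertoli scales kept 8, 8 and 2 members apart. Without L.J. 2 the list median was -0.34.

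Genes of spermatids overlapped between L.J. and control testes, and a few meiotic genes were apart. In the list of elongating spermatids 0 of 26 members had groups that did not overlap, and the list median of 0.75 was 0.16 without L.J. 2, 0.35 without control 3, 1.15 without L.J. 3 and 1.29 without control 2. Prm1, a protamine that replaces histones in sperm, had 755, 2609 and 503 FPKM in L.J. 1 to 3, against 323, 1386 and 257 FPKM in control 1 to 3. Each group held one library far above its other 2, and the log2 change of 1.03 ± 0.82 was of the size of its error. Each L.J. value lay above the control value of the same number. The list means did too, at 7.27, 8.62 and 6.69 in L.J. 1 to 3, against 6.54, 7.80 and 6.08 in control 1 to 3. With the library number as a block, limma called 4 genes of the elongating spermatid list, among them Tnp1 at 1.45 (adjusted p = 0.0456 by limma). The labels do not state such a pairing. Of 32 meiotic genes, 5 were apart and lower in L.J., against 7.97% of all genes, and the count was 2, 2 and 0 on the quantile, median and Sertoli scales. Among the 5 was Meiob, a single-strand DNA-binding protein of meiotic recombination, with 13.8, 9.50 and 8.17 FPKM in L.J. 1 to 3, against 18.1, 15.7 and 20.2 FPKM in control 1 to 3. Tex101, a germ cell surface protein needed for sperm to pass into the oviduct, had 152, 121 and 93.7 FPKM in L.J. 1 to 3, against 179, 183 and 185 FPKM in control 1 to 3. Dazl, an RNA-binding protein of early germ cells, had 72.0, 59.0 and 73.1 FPKM in L.J. 1 to 3, against 90.4, 83.6 and 108 FPKM in control 1 to 3. All 3 genes were below the controls in each L.J. library by a modest step, with log2 changes of -0.75 ± 0.24, -0.60 ± 0.22 and -0.46 ± 0.18, and all 3 overlapped when scaled to Sertoli genes. Tex101 also overlapped after median scaling and Dazl after quantile normalization. Spermatogonial genes such as Gfra1, a receptor of stem cells, overlapped, with 1.12, 1.71 and 0.85 FPKM in L.J. 1 to 3, against 1.56, 1.54 and 1.36 FPKM in control 1 to 3. In the spermatogonial list Dazl was the only one of 18 members apart.

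Genes of Sertoli cells, peritubular cells, macrophages and endothelium overlapped between the groups, with 0 of 24, 0 of 12, 0 of 18 and 0 of 13 members apart. Wt1, a transcription factor of Sertoli cells, had 32.4, 23.1 and 109 FPKM in L.J. 1 to 3, against 54.4, 29.8 and 53.6 FPKM in control 1 to 3. L.J. 3 lay far above the highest control and L.J. 2 under the lowest. Of 25 matrix genes, 3 were apart and lower. Col3a1, a fibril collagen of the interstitium, had 7.67, 3.95 and 7.13 FPKM in L.J. 1 to 3, against 12.9, 12.04 and 24.8 FPKM in control 1 to 3. Its log2 change was -1.25 ± 0.35, and the groups stayed apart under each scaling tried. Cxcl12, a chemokine that guides cells through its receptor Cxcr4, had 16.4, 4.84 and 18.6 FPKM in L.J. 1 to 3, against 28.4, 21.4 and 32.9 FPKM in control 1 to 3, also apart under each scaling. Of the lists of antioxidant defence and of the p53 response, 1 of 26 and 2 of 28 members were apart, all lower in L.J., against 7.97% of all genes. The direction in the p53 list turned with the scaling, with 1 higher and 0 lower after quantile normalization, 2 higher and 0 lower after median scaling, and 0 higher and 6 lower on the Sertoli scale. The antioxidant list had 3, 2 and 4 lower on these scales.

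Of 23 cell cycle genes 5 were apart and lower in L.J. and 0 higher, and of 18 piRNA pathway genes 3 were lower, against 7.97% of all genes. On the quantile, median and Sertoli scales the lower counts were 3, 2 and 1 for the cell cycle and 2, 0 and 0 for the piRNA pathway. Mcm6, a subunit of the replicative helicase, had 7.63, 5.77 and 8.59 FPKM in L.J. 1 to 3, against 10.6, 9.73 and 14.6 FPKM in control 1 to 3. Tdrd7, a tudor protein of germ granules, had 55.7, 56.2 and 36.97 FPKM in L.J. 1 to 3, against 57.98, 66.2 and 57.5 FPKM in control 1 to 3. L.J. 1 and L.J. 2 lay just under the lowest control for Tdrd7, which overlapped on the median and Sertoli scales, while Mcm6 overlapped on the Sertoli scale. Of 12 adipocyte genes 2 were lower, and 1 under each other scaling, among them Plin1, the coat protein of fat droplets, with 0.72, 0.09 and 0.6 FPKM in L.J. 1 to 3, against 1.58, 1.08 and 2.7 FPKM in control 1 to 3. Of 16 clock genes 1 was higher, against 1.10% of all genes. That gene was Per1, a repressor of the clock, with 62.1, 89.3 and 60.8 FPKM in L.J. 1 to 3, against 56.1, 55.9 and 42.9 FPKM in control 1 to 3. Per1 overlapped on the median and Sertoli scales. Of 15 genes of inflammation and interferon response 2 were lower, of 17 of retinoic acid metabolism 1 was lower, and of 18 of sperm energy metabolism 0 were apart.

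Transcripts of liver proteins made up the clearest separation between the groups. Most of them were lower in every L.J. library than in any control library, and levels were low in both groups. A list of 40 plasma proteins and enzymes of hepatocytes, the main liver cells, was written after these values were seen, so its counts describe and test nothing. All 40 are in the table, and 31 of them were lower in every L.J. library than in any control library and 0 higher. Of the 25 that passed the filter, 22 were lower in this way and 0 higher, against 7.97% and 1.10% of all genes tested. Apoh, a phospholipid-binding plasma protein, overlapped, with 10.1, 17.7 and 5.33 FPKM in L.J. 1 to 3, against 8.35, 13.3 and 6.76 FPKM in control 1 to 3. In the list sums that follow, Apoh made up 17.7 of 30.0 FPKM in L.J. 2 but 6.76 of 134 FPKM in control 3. Only 25 passed the filter, and 3 of the 40 reached 1 FPKM in all L.J. libraries, so most members passed through libraries in which they were high. The list summed to 31.1, 30.0 and 28.9 FPKM in L.J. 1 to 3, against 93.9, 83.5 and 134 FPKM in control 1 to 3. Members listed at 0 numbered 5, 9 and 3 in L.J. 1 to 3, against 1 in each control library. Alb, serum albumin (chromosome 5, 90460870 to 90476602), had 0.42, 0.22 and 0.81 FPKM in L.J. 1 to 3, against 9.31, 7.41 and 11.8 FPKM in control 1 to 3. Hrg, the histidine-rich glycoprotein of plasma (chromosome 16, 22951072 to 22961659), had 0.03, 0 and 0.07 FPKM in L.J. 1 to 3, against 8.07, 4.62 and 7.92 FPKM in control 1 to 3. For both genes every control value was several times the highest L.J. value, and the log2 changes on log2(FPKM + 1) were -2.82 ± 0.25 and -2.90 ± 0.24, with an adjusted p of 0.0897 for each by limma. Both genes passed on other scales, with an adjusted p by limma of 0.0219 each after median scaling and 0.0123 each on the Sertoli scale, and after quantile normalization Hrg passed at 0.0426 and Alb did not at 0.0618. Over all alternatives the adjusted p by limma ran from 0.000908 to 0.843 for each gene. Hamp, which encodes the iron hormone hepcidin, had 0.32, 0.47 and 0.17 FPKM in L.J. 1 to 3, against 4.33, 4.92 and 7.44 FPKM in control 1 to 3. Mup1, a major urinary protein with near-identical copies, had 0.13, 0 and 0.4 FPKM in L.J. 1 to 3, against 7.08, 2.93 and 6.89 FPKM in control 1 to 3. The adjusted p was 0.149 for Hamp and 0.447 for Mup1 by limma, and both were apart under each scaling tried.

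The same transcripts varied between single libraries of the busulfan groups. Alb had 40.3, 1.89 and 0.27 FPKM in busulfan plus L.J. 1 to 3, against 6.99, 0.10 and 0 FPKM in busulfan 1 to 3. The list summed to 414, 62.8 and 51.0 FPKM in busulfan plus L.J. 1 to 3, against 105, 48.4 and 47.2 FPKM in busulfan 1 to 3. The first library was the highest of each busulfan group, so these sums moved by library within groups that share a treatment. What placed these transcripts in some libraries was not tested. Car3, an enzyme of fat and muscle, had 9.72, 1.15 and 1.85 FPKM in L.J. 1 to 3, against 7.64, 19.1 and 77.1 FPKM in control 1 to 3, and Crisp1, of the epididymis, had 0.17, 1.86 and 33.6 FPKM in L.J. 1 to 3, against 1.09, 15.1 and 503 FPKM in control 1 to 3. Control 3 held the highest level of both genes. The epididymal list summed to 73.7, 114 and 228 FPKM in L.J. 1 to 3, against 94.5, 115 and 783 FPKM in control 1 to 3. Its part in the other differences was not tested.

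**Figure D4:**
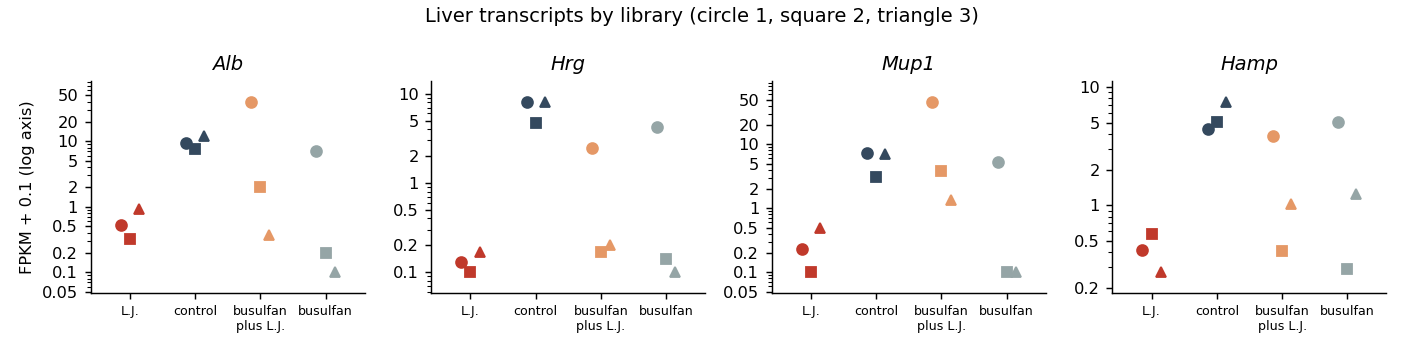
FPKM + 0.1 of 4 liver transcripts on log axes, with the groups L.J., control, busulfan plus L.J. and busulfan from left to right. Circles, squares and triangles are libraries 1, 2 and 3. All control points lie above all L.J. points for each gene, and the libraries of the busulfan groups spread widely.

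Of 14 genes of antigen presentation 1 was apart and higher in the L.J. libraries, Cd74, and 1 was apart and lower, H2-DMa. Over all genes 1.10% were apart and higher and 7.97% apart and lower. After quantile normalization or median scaling 2 of the 14 were higher and 0 lower. Cd74, the invariant chain of class II molecules and a receptor of the cytokine Mif, had 51.6, 51.7 and 86.9 FPKM in L.J. 1 to 3, against 27.2, 16.2 and 27.9 FPKM in control 1 to 3. All L.J. values lay above the highest control, under each scaling tried as well, and the log2 change was 1.37 ± 0.30 with an unadjusted p of 0.00266. The class II genes H2-Aa and H2-Ab1, chosen after their values were seen, overlapped as deposited, and H2-Ab1 was apart and higher after quantile normalization and median scaling. H2-Eb1, a further class II chain, overlapped on every scale. H2-DMa, which helps load peptides onto class II molecules, had 3.76, 2.86 and 2.98 FPKM in L.J. 1 to 3, against 3.8, 4.47 and 4.1 FPKM in control 1 to 3. That gap was narrow, and the groups overlapped under each of the 3 other scalings. H2-Aa had 12.7, 7.36 and 20.8 FPKM in L.J. 1 to 3, against 12.9, 7.02 and 11 FPKM in control 1 to 3. H2-Ab1 had 11.9, 9.95 and 15.6 FPKM in L.J. 1 to 3, against 11.3, 5.98 and 11.3 FPKM in control 1 to 3. Cd79a, the signalling chain of the B cell receptor, had 2.83, 1.34 and 1.87 FPKM in L.J. 1 to 3, against 0.18, 0.22 and 0.57 FPKM in control 1 to 3, with a log2 change of 1.17 ± 0.24. It was the only one of 9 lymphocyte and mast cell genes apart as deposited, against 1.10% of all genes apart and higher. Of the 18 listed, 9 did not pass the filter. Both genes also varied in the busulfan groups. Cd74 ranged from 36.0 to 93.1 FPKM in the busulfan plus L.J. libraries, against 7.83 to 51.1 FPKM in the busulfan libraries.

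**Figure D5:**
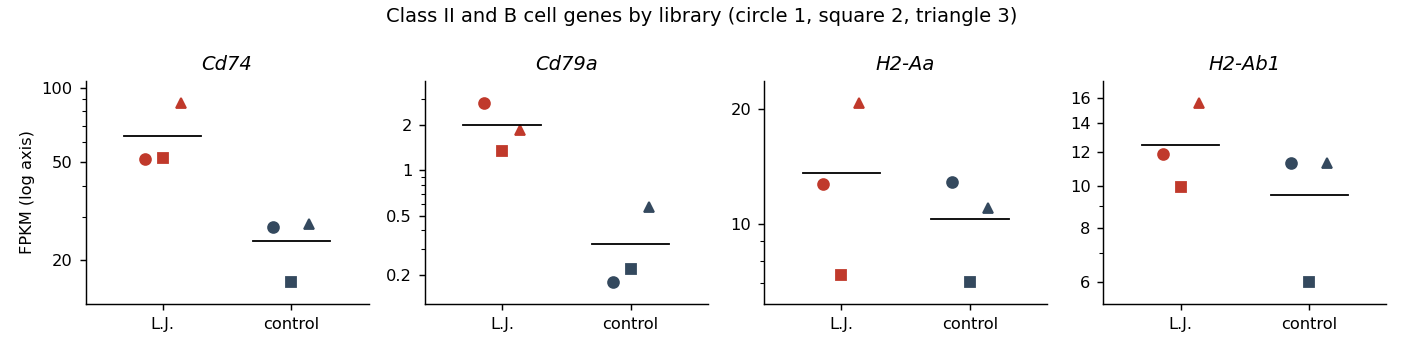
FPKM of Cd74, Cd79a and 2 class II genes in each library on log axes, L.J. left and control right. Circles, squares and triangles are libraries 1, 2 and 3, and lines are group means. The groups are apart for Cd74 and Cd79a and overlap for H2-Aa and H2-Ab1 in the deposited FPKM.

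With a covariate for the mix of germ and somatic cells, limma called 7 genes, or 0.0477%. The covariate was the mean of the elongating spermatid list minus that of the Sertoli list, which was 2.48, 4.19 and 0.21 in L.J. 1 to 3, against 0.99, 3 and 0.43 in control 1 to 3. The liver transcripts Alb, Hrg, Hamp, Mup1 and Serpina1d passed as lower in L.J., with log2 changes of -2.69, -2.81, -2.30, -2.26 and -1.44. Lrrc17, a leucine-rich secreted protein studied in bone, passed as lower at -1.19 ± 0.12 (adjusted p = 0.0338 by limma). Cd74 passed as higher at 1.56 ± 0.15 (adjusted p = 0.0338 by limma). The covariate was computed from the same 6 libraries. Without it the adjusted p by limma was 0.481 for Serpina1d and 0.906 for Lrrc17, and that of Cd74 was 1. Lrrc17 had 41.7, 29.9 and 51.8 FPKM in L.J. 1 to 3, against 114, 84.3 and 115 FPKM in control 1 to 3, apart under each scaling tried.

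Further genes that were apart and had at least 5 FPKM in the higher group came from varied pathways. Ass1, the arginine-making enzyme of the urea cycle, had 114, 19.8 and 51.6 FPKM in L.J. 1 to 3, against 165, 161 and 210 FPKM in control 1 to 3. Bhmt, which remethylates homocysteine, had 118, 16.6 and 55.8 FPKM in L.J. 1 to 3, against 157, 143 and 164 FPKM in control 1 to 3. Both followed the order of Cyp11a1 within the L.J. group, with L.J. 1 highest and L.J. 2 lowest, and both overlapped when scaled to Sertoli genes. Rarres1, a retinoic acid-responsive membrane protein, had 18.3, 4.55 and 13.6 FPKM in L.J. 1 to 3, against 50.4, 33.1 and 64.4 FPKM in control 1 to 3, a log2 change of -2.07 ± 0.49. Thrsp, a nuclear protein linked to fat synthesis, had 0.96, 0.42 and 1.59 FPKM in L.J. 1 to 3, against 9.14, 9.16 and 5.06 FPKM in control 1 to 3. It had an adjusted p of 0.503 by limma and stayed apart under each scaling, as Rarres1 did. Ibsp, a bone matrix sialoprotein, had 0.83, 0.29 and 0.28 FPKM in L.J. 1 to 3, against 11.6, 2.67 and 30.8 FPKM in control 1 to 3. Its control values differed more among themselves than those of most genes. Tcte3, a dynein light chain of the t complex, had 481, 25.2 and 170 FPKM in L.J. 1 to 3, against 918, 1146 and 894 FPKM in control 1 to 3. The t complex carries several near-identical copies of this gene in mice, so its values are uncertain.

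On the higher side the steps were smaller. Wasf2, which drives actin branching, had 36.7, 75.2 and 67.0 FPKM in L.J. 1 to 3, against 36.0, 35.8 and 28.5 FPKM in control 1 to 3. L.J. 1 lay just above the highest control. Nexn, an actin-binding protein of muscle, had 5.75, 7.39 and 12.3 FPKM in L.J. 1 to 3, against 4.89, 3.94 and 4.79 FPKM in control 1 to 3. Il3ra, a receptor chain for interleukin 3, had 26.7, 31.8 and 34.2 FPKM in L.J. 1 to 3, against 22.2, 22.2 and 19.1 FPKM in control 1 to 3. Zcchc7, a zinc knuckle protein of nuclear RNA decay, had 37.4, 53.8 and 50.8 FPKM in L.J. 1 to 3, against 35.3, 28.0 and 31.6 FPKM in control 1 to 3. The log2 changes were 0.76 ± 0.29 for Wasf2, 0.72 ± 0.29 for Nexn, 0.52 ± 0.17 for Il3ra and 0.56 ± 0.20 for Zcchc7. Scaled to Sertoli genes, Nexn stayed apart and the other 3 overlapped.

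Several genes were far outside the control range in single L.J. libraries. Sox12, a transcription factor, had 0.27, 11.4 and 37.8 FPKM in L.J. 1 to 3, against 9.42, 11.3 and 17.4 FPKM in control 1 to 3, so it was nearly missing from L.J. 1 and highest in L.J. 3. Klk1b27, a tissue kallikrein of Leydig cells, had 29.8, 0.7 and 1.02 FPKM in L.J. 1 to 3, against 20.4, 14.3 and 36.2 FPKM in control 1 to 3. L.J. 1 matched the controls and the other 2 L.J. libraries lay far under them, as they did for Klk1b21 and Klk1b24, and these paralogs are alike enough for reads to be shared. Other kallikreins went the other way. Of 12 tested, 6 lay above the highest control in L.J. 2 and 6 below the lowest, against 21.7% and 60.0% of all genes. Klk1b9 and Klk1b26 lay more than 1 log2 unit above there. In L.J. 3, 1 lay above and 5 below, against 39.4% and 36.7% of all genes. In L.J. 3, Serpina3a, a protease inhibitor of the serpin family, had 184 FPKM, against 39.3 to 45.8 FPKM in the control libraries. Robo4, a receptor of endothelial cells, had 13.9 FPKM in L.J. 3, against 1.21 to 3.36 FPKM in the control libraries. Apod, a lipid carrier, had 33.4 FPKM in L.J. 3, against 1.60 to 8.94 FPKM in the control libraries. S100a9, a calcium-binding protein of neutrophils, had 0.47, 1.5 and 5.32 FPKM in L.J. 1 to 3, against 0.12, 0 and 0.12 FPKM in control 1 to 3, low throughout, and higher in every L.J. library than in any control as deposited and under each scaling tried (log2 change 1.40 ± 0.49, unadjusted p 0.025 and adjusted p 1 by limma).

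Whether L.J. acted differently with busulfan was tested as the interaction, the log2 change of busulfan plus L.J. against busulfan minus that of L.J. against control. These changes share no library. Limma called 0 of 14675 genes, or 0%, with a smallest adjusted p of 1 and 182 genes at an unadjusted p below 0.05. Set against busulfan alone, busulfan plus L.J. also gave 0 calls, with 109 genes at an unadjusted p below 0.05. Among the Leydig genes, Cyp11a1 had 56.6, 51.0 and 50.6 FPKM in busulfan plus L.J. 1 to 3, against 73.6, 49.5 and 77.7 FPKM in busulfan 1 to 3. The groups overlapped there, and the interaction of Cyp11a1 was 1.43 ± 0.56. Vgll2, a cofactor of TEAD transcription factors, was among the genes with the smallest interaction p. It had 14.9, 12.4 and 6.81 FPKM in L.J. 1 to 3, against 24.3, 14.2 and 22.3 FPKM in control 1 to 3. It had 26.5, 24.0 and 15.1 FPKM in busulfan plus L.J. 1 to 3, against 0.07, 0.64 and 11.04 FPKM in busulfan 1 to 3. The busulfan libraries differed widely among themselves for this gene, and its interaction of 3.82 ± 0.99 had an adjusted p of 1 by limma.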

How the data were processed

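Per the labels, testis RNA was extracted with Trizol and made into Illumina libraries. Reads were aligned with Bowtie 0.12.2 to mm10, per the submitters' processing notes; for the quantifier and annotation no name was found in the labels. The authors deposited FPKM for each gene and library. The files used here hold no read counts, which leaves depth unknown and allows no interval for counting error. FPKM sums ran from 417242 to 535515 per library.

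By gene identifier 28 symbols were replaced, and 20841 identifiers, 99.2%, were found in RefSeq of GRCm38, which also gave positions. Genes with at least 1 FPKM in at least 3 of 12 libraries were kept, and 6329 were removed. The L.J. and control libraries were fitted on log2(FPKM + 1) by limma 3.58.1 (R 4.3.3, trended prior, 4 residual and 2.9 prior degrees of freedom), and p-values had Benjamini-Hochberg adjustment over all genes tested. The fit was tested on simulated data. The interaction used all 12 libraries. Groups are called apart where their values do not overlap. Figures were drawn with Python and matplotlib.

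The members, the gene lists, the rule for named genes and the tests were chosen with earlier results of these data known. The rule named the first 3 members of each list and up to 2 more with the largest change; the 10 largest changes each way among genes apart and the 5 smallest p each way, with a mean of at least 5 FPKM in the higher group; the 8 genes farthest above and below the control range in each L.J. library; and the 3 smallest interaction p each way. Not all are printed, some are not reported here, and some others were named after their values were seen. Lists of liver transcripts, kallikreins, class II and B cell genes, ribosomal proteins and respiratory subunits were written after their values were seen, and the ratios to Insl3 were chosen then too. Alternatives were a replicate block, other scalings, pseudocounts, filters and weights, and leaving out libraries.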

Additional observations from a re-analysis of the deposited data

How the results depend on the processing

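No gene passed in the 6-library fit. That count of 0 stayed 0 with all 4 groups, pseudocount 5, no filter, a 5 FPKM filter, limma's robust fit without trend, a log2 change of at least 1, and without any 1 library (0 to 0, with 126 to 2755 genes at an unadjusted p below 0.05). It was 54 with the replicate block, 22 with array weights gene by gene, 7 with the covariate, 2 with median scaling, 2 with Sertoli scaling, 1 with quantile normalization and 1 with pseudocount 0.1. The 54 held 31 higher and 23 lower genes, 12 of them in the liver list and 4 in the elongating spermatid list. The labels do not say whether same-numbered libraries belong together. Deviations from the group mean correlated at -0.175, 0.759 and 0.620 between same-numbered libraries 1 to 3. For L.J. 2 and L.J. 3 these were the highest values with any control library, while L.J. 1 correlated best with control 2.

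Genes apart numbered 439 higher and 713 lower (quantile), 511 and 508 (median), 141 and 632 (Sertoli), 273 to 1299 and 1421 to 4986 without 1 library, and 2360 and 5701 without L.J. 2 and 3 together, an alternative chosen after seeing the data. Interaction calls were 2523 with array weights, 1 without filter and 0 to 1 without 1 library.

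More than 1 log2 unit outside the control range, L.J. 1 had 31 above (Sertoli). L.J. 2 had 232, 428 and 667 above and 161, 163 and 94 below (quantile, median, Sertoli). L.J. 3 had 349, 192 and 4 above and 126, 132 and 2507 below.

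The lymphocyte and mast cell median was 0.23, 0.18 and 0.17 under these scalings. Without 1 library list medians ranged from -0.51 to 0.01 (endothelium), -0.68 to -0.05 (mesothelium), -0.44 to -0.04 (clock), -0.25 to 0.33 (immediate early) and 0.22 to 0.52 (class II and B cells). The log2 change of Hsd3b6, -0.89 with all libraries, was 0 without L.J. 2, -0.06 with array weights and 0.44 without L.J. 2 and 3 together. Of 717 values for 38 named genes, 685 kept direction and side of the threshold, 31 newly passed it and 1, that of Hsd3b6, reversed. No gene passed in the main fit, so keeping its side meant only that a gene was still not called. The size of a change did not enter this count. The causes were not tested. Depth is unknown.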

Other observations

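Genes of protein synthesis and respiration lay lower in the L.J. libraries as deposited. The lists were written after the values were seen. Of 79 cytosolic ribosomal protein genes tested, 30 were lower in every L.J. library than in any control and 1 was higher, against 7.97% lower over all genes. Their mean log2(FPKM + 1) was 6.85, 6.62 and 7.02 in L.J. 1 to 3, against 7.02, 7.02 and 7.31 in control 1 to 3. Of 79 nuclear genes of the respiratory chain and ATP synthase, 31 were apart and lower and 0 higher. Their mean was 6.03, 5.64 and 5.92 in L.J. 1 to 3, against 6.12, 6.13 and 6.33 in control 1 to 3. L.J. 2 was lowest for both lists. After quantile normalization 21 ribosomal and 23 respiratory members were apart and lower, and after median scaling 17 and 11, with 2 ribosomal members higher. Scaling to Sertoli genes left 2 members of each list apart and lower, so the count leans on the scaling. The median log2 change was negative on each scale. On the quantile, median and Sertoli scales it was -0.32, -0.16 and -0.23 for ribosomal genes and -0.33, -0.18 and -0.27 for respiratory genes. Many ribosomal protein genes have processed pseudogenes that could share reads.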
